A study of Mus musculus with 71 samples.

Results

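The genes Trp53rkb, Ripk1 and Plekho2 were selected on their read counts in the SLAM-seq libraries taken after 6 h of the Mettl3 inhibitor STM2457, where all 3 stood among the largest gains over the DMSO control. They are 3 of the 21527 genes counted, and all 3 were among the 12659 genes with enough reads to be tested. The study used male mESC grown in 2i/LIF, pluripotent cells derived from the mouse blastocyst for which the labels give no genetic change. Cells were labelled with 100 µM of the uridine analogue s4U for 24 h, and 20 µM STM2457 or its solvent DMSO was present for the last 6 h of labelling and throughout a chase with excess uridine. RNA was taken after 0, 1, 1.5, 2.3, 3.5, 5.3, 8 and 12 h of chase, that is after 6 to 18 h of treatment, with 4 libraries per treatment and time, or 3 in the case of STM2457 at 3.5 h. A further 4 libraries per treatment came from cells without s4U, so that 71 libraries in 18 conditions were compared. The study describes its replicates as independent biological ones, and the labels do not say what separates them.

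m6A is a methyl group placed on adenosines of mRNA by a complex in which Mettl3 is the catalytic subunit, mostly near stop codons and in 3′ UTRs, and reader proteins of the Ythdf family direct marked transcripts to decay. STM2457 occupies the catalytic pocket of Mettl3, so that newly made RNA lacks the mark. In SLAM-seq, s4U built into RNA is alkylated and read as a T-to-C conversion, and the loss of conversions during the chase follows the decay of RNA made before it. Trp53rkb is one of a pair of mouse genes for the kinase-like subunit of KEOPS, the complex that makes the tRNA modification t6A, and Trp53rka is the other. Ripk1 encodes the kinase that acts at the TNF receptor, where it serves as a scaffold for NF-kB signalling and can switch the cell to apoptosis or necroptosis. Plekho2 encodes a protein with a pleckstrin homology domain, a fold that binds phosphoinositide lipids, and Plekho1 is its closest relative by name.

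Trp53rkb (ENSMUSG00000042854.9) lies on chromosome 2 at 166792531 to 166799505, plus strand, GRCm38. Trp53rka (ENSMUSG00000039725.6) lies on the same chromosome at 165490110 to 165493324, minus strand. Ripk1 (ENSMUSG00000021408.15) spans 34002363 to 34037147 on chromosome 13, plus strand, and Plekho2 (ENSMUSG00000050721.9) spans 65552698 to 65580040 on chromosome 9, minus strand. Reads were counted on 3′ UTR windows, which total 831 bases for Trp53rkb, 504 for Ripk1, 500 for Plekho2 and 253 for Trp53rka. The files give no coordinates for these windows.

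The letters GGACT are the best known context of m6A, and they were searched for on the transcript strand. The transcripts with the longest coding sequence held 7 matches in Trp53rkb, 8 in Ripk1, 6 in Plekho2 and 5 in Trp53rka, and the 3′ UTRs held 5, 5, 3 and 3. Of the 12230 tested genes with a coding transcript, 91.8% had a match in the transcript and 57.8% in the 3′ UTR. With the related contexts GGACA and GGACC counted as well, none of which can overlap another, the transcripts had 4.52 matches per kb for Trp53rkb, 2.01 for Ripk1, 4.89 for Plekho2 and 6.38 for Trp53rka, beside a median of 3.72 over those genes. A match is a description of the letters and not a methylated site. The first GGACT after the stop codon in each transcript is shown, because this is the sequence context that the inhibited enzyme is known for. Each stretch has 30 bases, 5′ to 3′, with only that GGACT in capitals. Matches of GGACA or GGACC can lie nearer the stop codon, as GGACC at 3′ UTR base 50 does in Trp53rkb and Trp53rka.
Trp53rkb, 3′ UTR base 1327, chr2:166797175-166797204, plus strand: gaacatcttcaaGGACTacagtctatggag
Trp53rka, 3′ UTR base 435, chr2:165490781-165490810, minus strand: aggacaaggcagGGACTcagtttgggatgc
Ripk1, 3′ UTR base 423, chr13:34033193-34033222, plus strand: ttcccgcttcatGGACTgtgagtcagaaaa
Plekho2, 3′ UTR base 121, chr9:65555940-65555969, minus strand: caagtttggccaGGACTtgaggctcctgat

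Trp53rkb and Trp53rka are near copies. Their coding sequences, of 735 bases with the stop codon, were identical at 724 aligned positions (98.5%). The 3′ UTRs differ in length, 3645 bases against 1123, and only 107 of the 3596 stretches of 50 bases in the 3′ UTR of Trp53rkb (2.98%) occur unchanged in the Trp53rka transcript. None of the 201 stretches in the last 250 bases of either 3′ UTR occurs in the other. Over all libraries, 546 of 12007 Trp53rkb reads (4.55%) and 215 of 24449 Trp53rka reads (0.879%) mapped to several places. The 300-base windows around the RefSeq transcript starts, 250 bases before and 50 after, were identical at 235 of 261 aligned bases (90.0%). They are printed with every base that is unmatched in the alignment in capitals, since this pair of genes shared a start region yet differed in their read counts under STM2457. The 65 capitals of each window include bases outside the 261 aligned, which had no partner in the other window. The end of the Trp53rka window is in capitals because it runs past the end of the Trp53rkb window.
Trp53rkb, chr2:166793517-166793816, plus strand, GRCm38.p6: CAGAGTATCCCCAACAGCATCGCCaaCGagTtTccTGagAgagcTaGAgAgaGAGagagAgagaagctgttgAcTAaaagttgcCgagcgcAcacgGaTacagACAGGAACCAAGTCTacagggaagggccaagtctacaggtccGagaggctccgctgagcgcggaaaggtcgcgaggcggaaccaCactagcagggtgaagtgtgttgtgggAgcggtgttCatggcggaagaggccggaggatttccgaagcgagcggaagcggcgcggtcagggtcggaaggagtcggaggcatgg
Trp53rka, chr2:165493265-165493564, minus strand, GRCm38.p6: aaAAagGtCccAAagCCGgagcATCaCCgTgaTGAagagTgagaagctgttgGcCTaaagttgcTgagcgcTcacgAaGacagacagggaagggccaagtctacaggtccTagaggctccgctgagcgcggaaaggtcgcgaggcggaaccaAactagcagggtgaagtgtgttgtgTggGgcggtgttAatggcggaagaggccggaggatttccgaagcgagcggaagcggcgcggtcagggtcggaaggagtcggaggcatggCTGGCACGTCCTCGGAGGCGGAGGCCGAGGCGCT

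Libraries held 4539726 to 7368244 counted reads, with a median of 5726508. The depth for single genes was low: 49 to 364 reads per library for Trp53rkb, 26 to 171 for Ripk1 and 4 to 155 for Plekho2. Of 8 pluripotency markers, 7 were counted and all 7 had a median of at least 1 CPM, and their summed level was 904 to 1518 CPM in DMSO and 1208 to 1708 CPM in STM2457 libraries. Pou5f1 was never below 603 CPM. Of 5 fibroblast genes, Postn was at 0 in all 71 libraries and Thy1 alone had a median of at least 1 CPM, and their sum was 3.89 to 22.9 CPM in DMSO and 4.95 to 24.3 CPM in STM2457 libraries. Of the germ layer and primed markers, Gata4, T and Otx2 had medians of at least 1 CPM, and the 3 neural markers were not analysed here. Read counts are given as CPM, counts scaled to library size with TMM factors. All differences are STM2457 against DMSO on the log2 scale, from 1 edgeR quasi-likelihood fit over all 71 libraries, with p-values adjusted over all 12659 genes by Benjamini-Hochberg and called under 0.01.

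At 0 h of chase, the contrast that chose the genes, Trp53rkb stood at 17.3, 14.9, 14.8 and 10.4 CPM in the DMSO libraries and at 46.5, 45.5, 43.8 and 56.6 CPM in the STM2457 libraries. Ripk1 had 7.97, 8.73, 7.69 and 6.42 CPM in DMSO and 20.9, 18.4, 21.6 and 25.04 CPM in STM2457. Plekho2 had 4.68, 7.94, 10.6 and 4.33 CPM in DMSO and 15.4, 19.4, 27.1 and 16.02 CPM in STM2457. For each gene the lowest STM2457 library stood above the highest DMSO library, as 5.94% of all tested genes did. The log2 differences were 1.74 ± 0.22 (SE) for Trp53rkb, 1.48 ± 0.25 for Ripk1 and 1.49 ± 0.36 for Plekho2, which correspond to 3.35-, 2.79- and 2.81-fold. They are given without a test, because these values selected the genes. Of the 161 genes called higher (1.27% of those tested), Trp53rkb ranked 3, Plekho2 6 and Ripk1 7 by log2 difference. Just outside stood Thsd1 above Trp53rkb at 1.804, Tmem37 below it at 1.72, Nupr1 above Plekho2 at 1.57 and Nrxn2 below Ripk1 at 1.36.

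Trp53rkb remained higher under STM2457 in all 8 comparisons that did not choose it, the 7 later chase times and the unlabelled cells, by 1.08 to 1.66 on the log2 scale. In none of the 8 did the treatments overlap. At 1 h of chase the DMSO libraries had 13.4, 18.4, 27.8 and 18.8 CPM and the STM2457 libraries 54.9, 51.7, 39.3 and 52.97 CPM. This is a difference of 1.34 ± 0.21 (SE, edgeR adjusted p = 1.16e-05), and 1.11% of genes were called higher at that time. At 12 h, after 18 h of treatment, the values were 22.2, 17.1, 13.7 and 13.2 CPM in DMSO and 27.96, 40.5, 39.5 and 32.2 CPM in STM2457. The difference was 1.09 ± 0.22 (edgeR adjusted p = 0.000174), and 3.85% of genes were called higher. Each STM2457 library was still above each DMSO library, which held for 9.21% of genes at 12 h and 3.39% at 1 h.

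At the times between, Trp53rkb ranged from 9.45 to 25.8 CPM in DMSO and from 29.1 to 50.3 CPM in STM2457 libraries. At 1.5 h the DMSO libraries had 9.45, 18.3, 25.8 and 21.9 CPM and the STM2457 libraries 41.6, 29.1, 46.5 and 44.2 CPM, the closest approach of the treatments. At 8 h they had 24.7, 13.8, 21.6 and 17.2 CPM against 31.7, 50.2, 33.1 and 48.2 CPM. The difference was 1.10 ± 0.21 at 1.5 h (edgeR adjusted p = 0.000191), 1.23 ± 0.21 at 2.3 h (5.81e-05) and 1.30 ± 0.23 at 3.5 h (8.89e-05). The largest of the later differences, 1.66 ± 0.22 (1.00e-07), was seen at 5.3 h, where the DMSO libraries had 14.2, 12.6, 12.1 and 13.4 CPM and the STM2457 libraries 38.9, 49.9, 32.8 and 44.02 CPM. At 8 h it was 1.08 ± 0.21 (0.000393). The shares of genes called higher at these times were 4.16% at 1.5 h, 1.26% at 2.3 h, 1.04% at 3.5 h, 2.46% at 5.3 h and 1.79% at 8 h. The shares without overlap were 11.5%, 6.6%, 8.56%, 8.22% and 7.09%. All 8 calls of Trp53rkb were kept when any single library was left out, and the call at 1 h was lost in a fit of that time alone (1.33, edgeR adjusted p = 0.125). In bulk libraries, more RNA per cell and more cells that express a gene cannot be told apart.

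**Figure D1:**
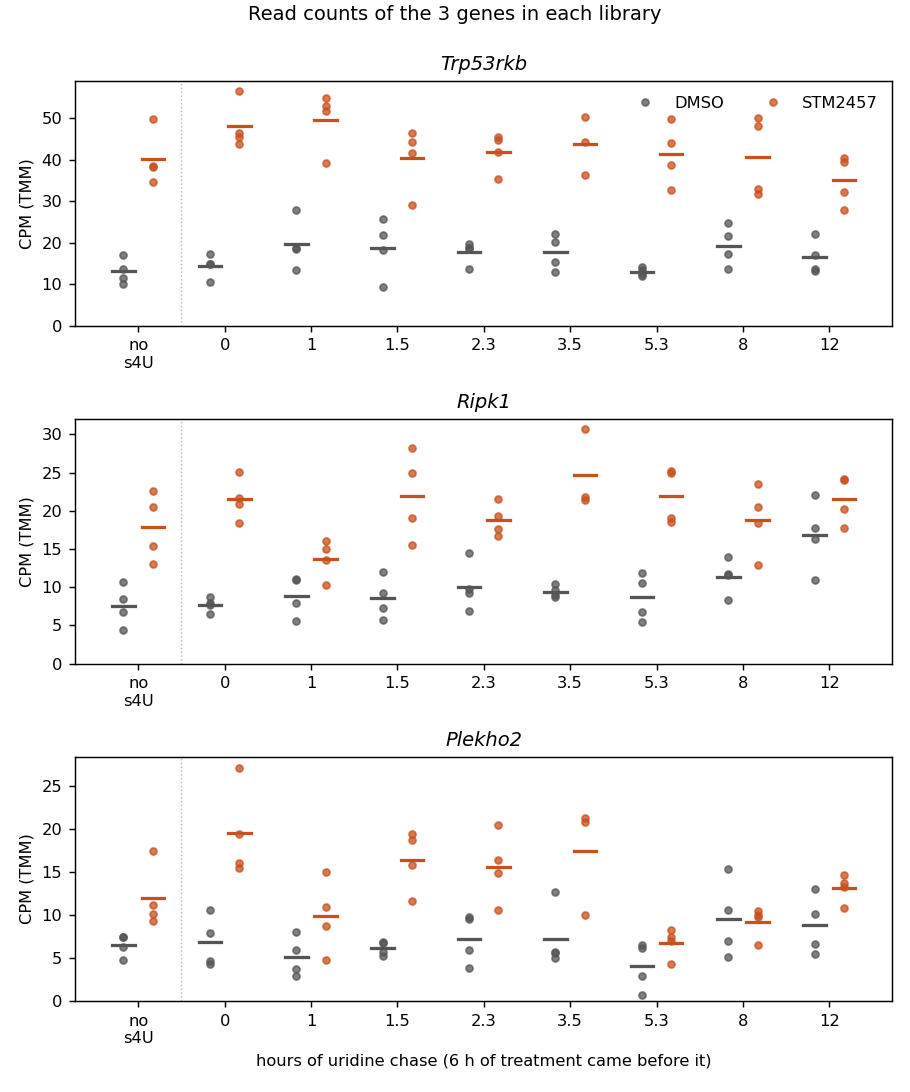
CPM of Trp53rkb, Ripk1 and Plekho2 (vertical axes, from 0) in each of the 71 libraries, by treatment and hours of uridine chase (horizontal axis, with the unlabelled cells at the left). Points are libraries and bars are means; the Trp53rkb points of the treatments are apart at every time, those of Ripk1 overlap at 1, 8 and 12 h, and those of Plekho2 at 1, 3.5, 5.3, 8 and 12 h.

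Ripk1 was called higher in 4 of the 8 comparisons that did not choose it, and its treatments did not overlap in 5. Its calls came at 1.5, 3.5 and 5.3 h and without s4U, where 4.16%, 1.04%, 2.46% and 1.73% of all tested genes were called higher. It had no overlap at 1.5, 2.3, 3.5 and 5.3 h and without s4U, as for 11.5%, 6.6%, 8.56%, 8.22% and 6.15% of genes. At 1.5 h Ripk1 had 9.26, 11.98, 5.67 and 7.23 CPM in DMSO and 24.9, 15.5, 28.2 and 19.1 CPM in STM2457. The difference was 1.36 ± 0.25 (edgeR adjusted p = 0.000102). At 3.5 h the 4 DMSO libraries lay between 8.74 and 10.3 CPM and the 3 STM2457 libraries had 21.8, 21.5 and 30.7 CPM, a difference of 1.39 ± 0.26 (0.000354). At 5.3 h the values were 10.6, 11.8, 6.79 and 5.47 CPM in DMSO and 19.03, 24.9, 18.6 and 25.2 CPM in STM2457, a difference of 1.34 ± 0.25 (0.000156). The DMSO and STM2457 libraries overlapped at 1 h, with 10.9, 5.60, 11.1 and 7.92 against 15.0, 10.3, 16.1 and 13.5 CPM, and at 8 h, with 8.29, 11.7, 13.96 and 11.6 against 20.4, 18.4, 23.5 and 12.9 CPM. At 1 h (0.63 ± 0.25, 0.201) and 2.3 h (0.90 ± 0.25, 0.0230) the difference was positive but did not pass. At 8 h it was 0.72 ± 0.25 (0.0786).

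By 12 h the 2 treatments overlapped for Ripk1. The DMSO libraries had risen to 16.3, 17.8, 10.9 and 22.01 CPM, while the STM2457 libraries had 20.3, 24.1, 17.7 and 24.2 CPM, a difference of 0.36 ± 0.24 (edgeR adjusted p = 0.405). Within DMSO, Ripk1 rose by 0.077 ± 0.018 log2 per hour from 1 to 12 h of chase (edgeR adjusted p = 0.000425), one of 1488 genes that did so (11.8%). Within STM2457 its slope was 0.021 ± 0.017 per hour (0.438). The slope of the difference itself was -0.056 ± 0.025 per hour (edgeR adjusted p = 0.193), so the narrowing did not pass over all genes tested, of which 2.86% changed in either direction. The call at 3.5 h was lost without STM2457 replicate 3 (1.20, adjusted p = 0.0123).

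Plekho2 had the lowest counts and the fewest calls, 1 of 8, with no overlap in 3 of 8. Its call came at 1.5 h, where 4.16% of all tested genes were called higher, the largest share of any time. Its libraries did not overlap at 1.5 h, at 2.3 h and without s4U, as for 11.5%, 6.6% and 6.15% of genes. At 1.5 h Plekho2 stood at 5.21, 5.68, 6.92 and 6.82 CPM in DMSO and at 15.8, 19.4, 18.7 and 11.6 CPM in STM2457. The difference was 1.41 ± 0.37 (edgeR adjusted p = 0.00527). That call was lost on leaving out any of 7 of the 8 libraries, STM2457 replicate 4 being the exception, with differences of 1.30 to 1.46 and adjusted p of 0.01004 to 0.0219. At 1 h the values were 8.05, 2.89, 5.95 and 3.79 CPM in DMSO and 10.9, 8.75, 15.0 and 4.80 CPM in STM2457, which overlap, and at 2.3 h they were 5.94, 9.73, 3.86 and 9.50 against 10.53, 16.4, 14.9 and 20.4 CPM, which do not. From 1 to 3.5 h the other differences were 0.94 ± 0.38 (0.2004), 1.09 ± 0.36 (0.0782) and 1.25 ± 0.38 (0.0577).

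At the later times the Plekho2 libraries of both treatments mixed. At 5.3 h DMSO had 0.754, 6.47, 2.97 and 6.23 CPM, the lowest from 4 reads, and STM2457 had 4.27, 6.96, 7.46 and 8.30 CPM (0.71 ± 0.39, edgeR adjusted p = 0.243). At 8 h DMSO had 5.12, 6.97, 15.4 and 10.6 CPM and STM2457 10.0, 9.82, 10.47 and 6.54 CPM (-0.05 ± 0.36, 0.974). At 12 h DMSO had 6.65, 5.52, 10.1 and 13.04 CPM and STM2457 13.7, 10.8, 14.7 and 13.2 CPM (0.57 ± 0.36, 0.374). The slope of the difference over 1 to 12 h was -0.087 ± 0.037 per hour (edgeR adjusted p = 0.166), composed of 0.058 ± 0.027 in DMSO (0.0814) and -0.029 ± 0.026 in STM2457 (0.483), none of which passed. For Trp53rkb the corresponding slope was -0.014 ± 0.022 (adjusted p = 0.783). An early gain thus describes the means of Ripk1 and Plekho2, with no slope of the difference past the threshold, while the gain of Trp53rkb was called up to 12 h.

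Cells without s4U were compared to see whether the gain was also present in the absence of the label, and it was called for Trp53rkb and Ripk1. Trp53rkb stood at 10.1, 11.6, 17.1 and 13.7 CPM in unlabelled DMSO and at 49.8, 38.6, 34.6 and 38.2 CPM in unlabelled STM2457 libraries, 1.62 ± 0.22 higher (edgeR adjusted p = 3.22e-07). Ripk1 had 10.7, 4.37, 6.77 and 8.49 CPM in DMSO and 22.5, 12.97, 20.5 and 15.4 CPM in STM2457, 1.22 ± 0.25 higher (0.000956). Its call was lost without DMSO replicate 2 (1.02, 0.0136) or STM2457 replicate 1 (1.08, 0.0102), and in a fit of these 8 libraries alone (1.22, 0.0263). Plekho2 had 7.50, 7.40, 4.74 and 6.26 CPM in DMSO and 17.4, 11.1, 9.35 and 10.1 CPM in STM2457, with a difference of 0.88 ± 0.37 that did not pass (0.149). None of the 3 genes overlapped between treatments, as for 6.15% of genes, and 1.73% of genes were called higher. How long the unlabelled cells had been treated is not given in the sources used here.

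**Figure D2:**
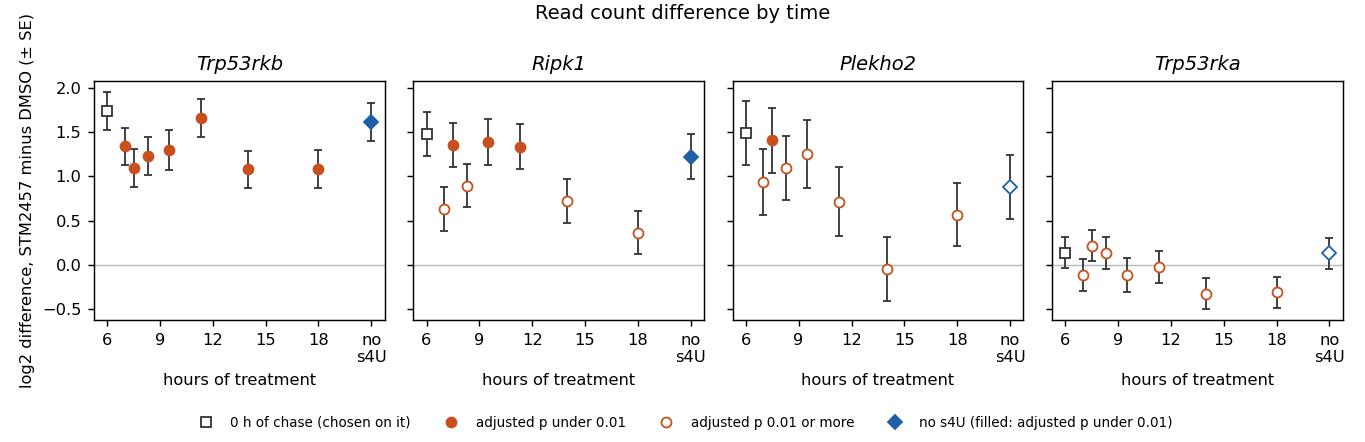
Log2 difference in read counts, STM2457 minus DMSO, ± SE (vertical axis) against hours of treatment (horizontal axis, unlabelled cells at the right) for the 3 genes and Trp53rka. Filled circles and diamonds passed an adjusted p under 0.01 and open squares mark 0 h of chase, which chose the 3 genes; Trp53rkb stays above 1 throughout, Ripk1 ends at 0.36, Plekho2 is at -0.05 after 14 h and Trp53rka stays between -0.33 and 0.22.

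The paralog Trp53rka was not called at any time, with differences between -0.33 and 0.22. Its 4 libraries at 12 h had 81.2, 88.8, 75.7 and 70.3 CPM in DMSO and 57.7, 62.4, 70.7 and 63.3 CPM in STM2457 (-0.31 ± 0.18, edgeR adjusted p = 0.299). Because a ratio of genes within a library does not depend on scaling, Trp53rkb reads were divided by Trp53rka reads in each library, a comparison added after the values were seen. The log2 ratio was -2.28 ± 0.28 (SD, n = 4) in DMSO and -0.87 ± 0.19 in STM2457 at 12 h, and -2.14 ± 0.35 and -0.60 ± 0.25 without s4U. Over the 8 comparisons that did not choose Trp53rkb, the ratio was 0.93 to 1.64 higher under STM2457, and the libraries did not overlap in 6. Where 4 libraries met 4 without overlap, the two-sided exact permutation test gave p = 0.0286, the smallest it can give, and 0.0457 after adjustment over the 8 comparisons. At 1 and 1.5 h, where libraries overlapped, p was 0.0571 and 0.0857, and at 3.5 h, with 3 libraries, the smallest possible p is 0.0571. When the reads of both genes were added together, the sum was 0.64 higher at 0 h and 0.05 higher at 12 h (edgeR adjusted p = 0.899).

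**Figure D3:**
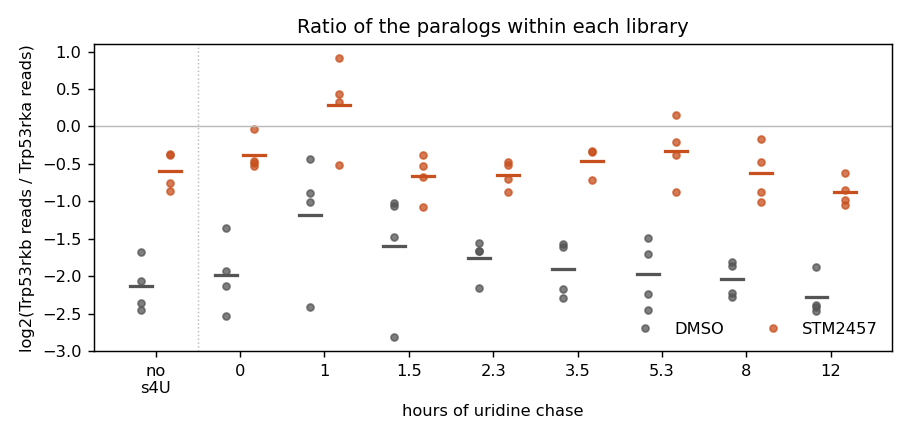
Log2 of Trp53rkb reads over Trp53rka reads in each library (vertical axis) by treatment and hours of uridine chase (horizontal axis, unlabelled cells at the left). Points are libraries and bars are means; at 12 h the DMSO mean is -2.28 and the STM2457 mean -0.87, and the counting windows of the genes differ in length, so only the shift between treatments is to be read.

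Reads with and without a T-to-C conversion were also counted apart. At 1 h of chase, Trp53rkb reads with a conversion amounted to 2.36 ± 1.24 CPM in DMSO and 8.94 ± 1.16 CPM in STM2457 (SD, n = 4), with no overlap, and reads without one to 17.3 ± 4.77 and 40.8 ± 6.59 CPM. At 12 h converted reads were 0.690 ± 0.809 and 1.40 ± 0.797 CPM, the latter below the 2.16 ± 0.926 CPM of unlabelled STM2457 libraries (0.0928 ± 0.108 CPM in unlabelled DMSO), and unconverted reads 15.8 ± 3.55 and 33.6 ± 5.74 CPM. Ripk1 reads with a conversion did not stand apart at 1 h, at 2.17 ± 1.04 CPM in DMSO and 2.13 ± 0.997 CPM in STM2457. At 0 h, the time that chose the genes, they were 0.64 ± 0.52 and 3.83 ± 1.33 CPM, without overlap. The DMSO and STM2457 means were 1.02 and 3.18 CPM at 1.5 h and 1.43 and 3.12 CPM at 2.3 h. They were 0.613 and 2.49 CPM at 3.5 h and 0 and 0.683 CPM at 5.3 h. At 8 h they were 0.132 and 0.041 CPM and at 12 h 0.043 and 0 CPM. From 1.5 h on, the lowest STM2457 library never stood above the highest DMSO library. Ripk1 reads without a conversion were 6.72 ± 2.04 CPM at 1 h and 16.7 ± 4.56 CPM at 12 h in DMSO, beside 11.6 ± 2.35 and 21.6 ± 3.17 CPM in STM2457. Plekho2 reads without a conversion at 12 h were 8.42 ± 3.46 CPM in DMSO and 12.95 ± 1.57 CPM in STM2457, and those with one were 0.408 ± 0.275 and 0.160 ± 0.320 CPM. No test was run on these classes.

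The conversion rate, conversions over covered T positions, is a measure that the choice of genes did not use. At 0 h it was 1.85, 0.851, 1.09 and 1.51% for Trp53rkb in DMSO and 1.03, 2.13, 1.59 and 1.62% in STM2457. After the mean of the unlabelled libraries was subtracted, the means were 1.29% ± 0.440 (SD, n = 4) and 1.29% ± 0.447, and a two-sided exact permutation test gave p = 1.0. Ripk1 had 0.800, 0, 0.646 and 0.390% in DMSO, from 16 conversions in all, and 0.734, 1.73, 1.69 and 0.678% in STM2457. The background-subtracted means were 0.361% ± 0.350 and 1.03% ± 0.581 (exact permutation p = 0.143, n = 4). Plekho2 had 0.402, 2.74, 0.863 and 2.08% in DMSO and 0.870, 0.580, 1.20 and 2.21% in STM2457, with means of 1.52% ± 1.08 and 1.21% ± 0.708 (exact permutation p = 0.714, n = 4). The treatments overlapped for all 3 genes. The unlabelled libraries, whose mean was subtracted, held conversions of Trp53rkb at 0 to 0.0853% in DMSO and at 0.143 to 0.402% in STM2457, and 1.01% of 9707 genes had such a gap without overlap. By limma over the 8629 genes with enough coverage, 3 (0.0348%) differed at an adjusted p under 0.05, Trp53rkb (adjusted p = 0.999) and Plekho2 (0.968) not among them, and Ripk1 was not tested there.

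**Figure D4:**
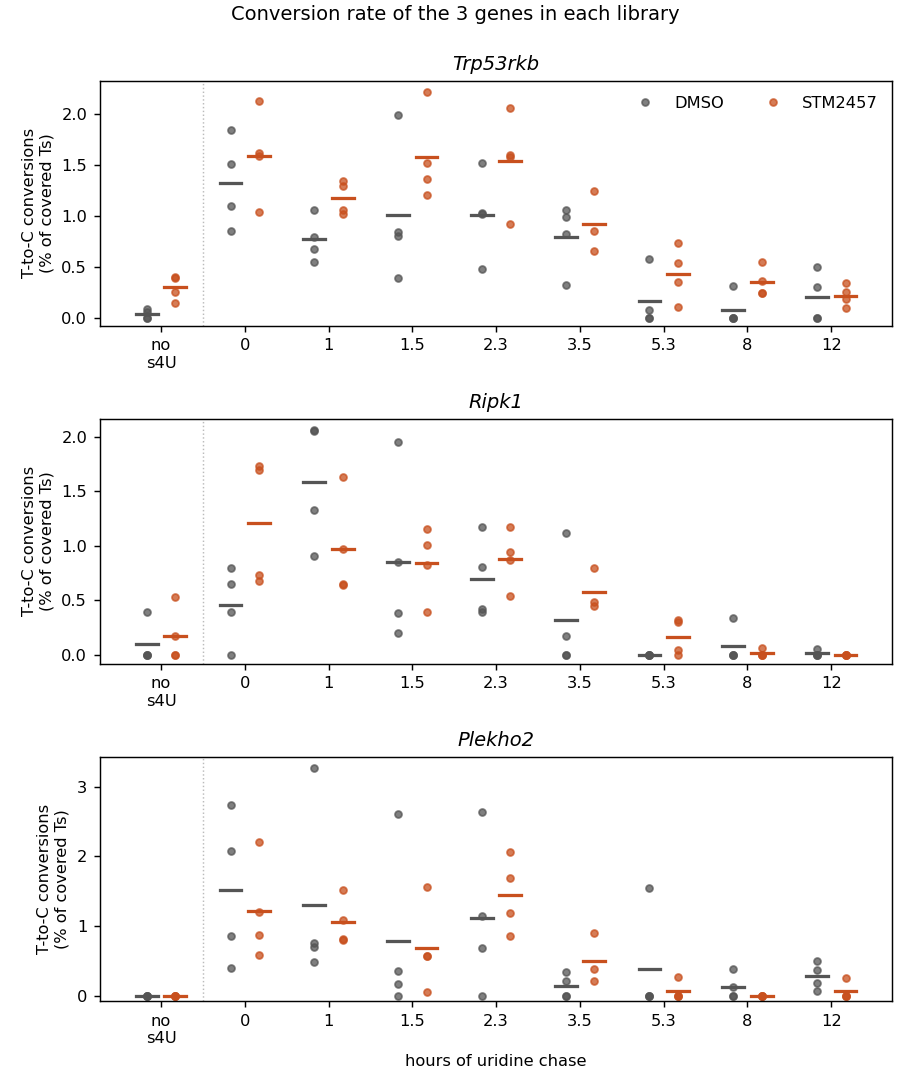
Conversion rate in percent of covered T positions (vertical axes, no background subtracted) in each library, by treatment and hours of uridine chase (horizontal axis, unlabelled cells at the left). Points are libraries and bars are means; for each gene the 12 h means lie below the 0 h means in both treatments, and unlabelled STM2457 libraries of Trp53rkb lie at 0.143 to 0.402%.

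For Trp53rkb, the background-subtracted rate is given as a percentage of that at 0 h. It was 56.8% in DMSO at 1 h, and higher in STM2457. By 1.5 h it was 75.3% in DMSO and 98.9% in STM2457, and at 2.3 h 75.4% and 96.0%. It was 58.9% and 47.8% at 3.5 h, and 9.90% and 10.3% at 5.3 h. Later it was 3.34% and 3.87% at 8 h, and 12.7% and -6.18% at 12 h. The DMSO rate thus did not fall steadily, and the library rates of the treatments overlapped from 1 to 3.5 h. The treatments were not tested against each other at these times. The exponential fit to all replicates gave a half-life of 2.89 h under DMSO and 3.22 h under STM2457, close to the medians of 3.19 and 3.45 h over 7363 transcripts. Fits to the 4 replicate series gave 2.28, 3.95, 4.60 and 2.16 h in DMSO and 4.02, 2.44, 3.45 and 3.56 h in STM2457, which overlap. The residual standard error was above 0.3 in DMSO series 2 (0.397) and in STM2457 series 3 (0.359) and 4 (0.367). The log2 difference was 0.11 ± 0.32 (SE, limma adjusted p = 0.966; two-sided exact permutation p = 0.8286). The direction was not stable. It turned when conversions were taken per library size in place of the rate (4.61 h in DMSO and 2.88 h in STM2457, log2 -0.68, exact permutation p = 0.2), and without DMSO series 1 (-0.04) or 4 (-0.06). Without background subtraction the difference was 0.52, from 3.25 and 4.64 h. With a straight line on the log of the rates, the series gave 7.15 h in DMSO and 2.04 h in STM2457 (geometric means, exact permutation p = 0.0286), the smallest p that 4 against 4 allows.

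For Plekho2 the fit to all replicates gave 2.33 h in DMSO and 3.10 h in STM2457. Its series gave 10.4957, 1.99, 2.57 and 2.56 h in DMSO and 2.10, 17.3, 2.34 and 1.81 h in STM2457, so 1 series of each treatment stood far from the others. The residual standard error was above 0.3 in DMSO series 1 (0.652) and 4 (0.499) and in STM2457 series 1 (0.321) and 2 (1.27). Leaving out series 2 or 4 moved the STM2457 fit to 1.94 or 4.34 h. The log2 difference was 0.04 ± 0.77 (limma adjusted p = 0.997; exact permutation p = 0.971), and it ranged from -0.72 to 0.58 with 1 series left out. For Ripk1 in DMSO no usable half-life was obtained: the mean rate at 1 h was 412% of that at 0 h, the fit had a residual standard error of 1.41 against a limit of 0.3, and series 2 had 0 conversions at 0 h. In STM2457 the Ripk1 rate fell to 38.8% at 3.5 h, with a half-life of 2.14 h and series of 5.99, 1.64, 1.25 and 1.72 h. Series 1 (0.858) and 4 (0.320) of these had a residual standard error above the limit. At 5.3 h in DMSO, 0 conversions were counted on 3257 covered T positions, which allows a rate of up to 0.0921% by counting error alone. Among 5741 transcripts that could be fitted in all series, limma called 0 (0%), with 405 at an unadjusted p under 0.05; Ripk1 was not among the transcripts tested.

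Of the other 6 tested genes of the KEOPS and t6A list, 0 were called higher by edgeR at any time, and 1 was called lower, Tprkb at 12 h, where 1.56% of all genes were called lower. Tprkb encodes the KEOPS subunit that binds the kinase, and it stood at 50.2 ± 7.41 CPM in DMSO and 30.97 ± 7.45 CPM in STM2457 (SD, n = 4), a difference of -0.70 ± 0.17 (SE, edgeR adjusted p = 0.00399). Its slope over 1 to 12 h was -0.073 ± 0.018 per hour (0.00530). The median difference of the list was 0.02 at 0 h, between -0.16 and -0.07 from 1 to 8 h, 0.04 at 12 h and 0.04 without s4U, where the medians over all genes lay between -0.03 and 0.01.

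Among the other 36 tested genes of the TNF receptor, RIPK1 and NF-kB list, 0 passed by edgeR in either direction at 12 h and 0 without s4U. The median difference was -0.05 at 12 h and -0.06 without s4U. At earlier times Fadd was called higher at 0, 1, 1.5 and 5.3 h, Spata2 at 0, 1 and 1.5 h and Tnip1 at 1.5 h, genes named here after their values were seen. Of the 36, 2 were called higher at 0 h, 2 at 1 h, 3 at 1.5 h and 1 at 5.3 h. The shares of all genes were 1.27%, 1.11%, 4.16% and 2.46%. The list medians at these times were -0.06, 0.14, 0.004 and 0.03, with 16, 24, 18 and 19 of the 36 above 0. Fadd encodes the adaptor that joins Ripk1 to caspase-8 in the death-inducing complex. It had 7.76 ± 1.03 CPM in DMSO and 15.97 ± 3.10 CPM in STM2457 at 1 h (1.04 ± 0.24, edgeR adjusted p = 0.00482), and 18.1 ± 2.65 and 19.7 ± 5.39 CPM at 12 h (0.12 ± 0.23, 0.816). Spata2, which links the deubiquitinase Cyld to the TNF receptor complex, had a difference of 0.93 ± 0.15 at 1.5 h (1.05e-05) and 0.44 ± 0.15 at 12 h (0.0420). Tnip1, a ubiquitin-binding partner of A20, had 0.59 ± 0.16 at 1.5 h (0.00539).

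Of the other 28 tested Plekh genes, 3 were called higher at 0 h, 2 at 12 h and 2 without s4U, where 1.27%, 3.85% and 1.73% of all genes were. Without s4U 1 was called lower, as were 0.845% of all genes. The median difference was 0.23 at 0 h, 0.04 at 12 h and 0.24 without s4U. Plekhf2, an endosomal protein with a FYVE domain, had 42.1 ± 7.12 CPM in DMSO and 108 ± 14.5 CPM in STM2457 at 12 h (1.36 ± 0.16, edgeR adjusted p = 6.23e-10), and its difference grew by 0.070 ± 0.016 per hour (0.00185). Plekhg5 was higher by 0.56 ± 0.14 at 12 h (0.00406) and by 0.59 ± 0.14 without s4U (0.00553). Plekhf1 was higher by 1.18 ± 0.29 without s4U (0.00594), with 0.62 ± 0.29 at 12 h (0.181). Plekhh2 was lower without s4U (-2.64 ± 0.68, 0.00967) at 3.28 ± 1.39 CPM in DMSO and 0.505 ± 0.107 CPM in STM2457. Plekho1 was not called at any time. It stood at 7.31 ± 1.60 CPM in DMSO and 14.6 ± 5.84 CPM in STM2457 without s4U (0.98 ± 0.33, 0.0592), and at 17.6 ± 0.868 and 15.5 ± 3.801 CPM at 12 h (-0.18 ± 0.31, 0.808).

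Across the 18 condition means of log2(CPM + 1), the genes most like Trp53rkb were Cyp2s1 (Pearson r = 0.954), Msmo1 (0.952) and Brf2 (0.949). Those most like Ripk1 were BC030867 (0.945), Hddc3 (0.945) and Slc19a1 (0.943), and those most like Plekho2 were Axin1 (0.921), Fbrsl1 (0.920) and Mrm2 (0.908). Cyp2s1 kept its difference from 0 h (1.53) to 12 h (1.71), as did Brf2 in part (1.29 and 0.85). Hddc3 went from 1.05 to 0.01 and Axin1 from 0.62 to 0.15. Among themselves the 3 genes had r = 0.860 for Trp53rkb and Ripk1, 0.801 for Ripk1 and Plekho2 and 0.762 for Trp53rkb and Plekho2. These correlations are descriptions over conditions that share treatment and time, and the genes were picked for the highest values.

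At 0 h the nearest genes on the chromosome among those counted were at most 0.17 higher. Prex1 and Arfgef2, 78699 and 6083 bases from Trp53rkb, differed by 0.10 and -0.34 at 0 h and were called at no time. The same held for Serpinb6a, whose annotated span overlaps the start of Ripk1 on the opposite strand (0.17 at 0 h), and for Nqo2 (-0.27) and Bphl (-0.24), the nearest on each side of Ripk1. Beside Plekho2, Spg21 and Pif1, 64228 and 7120 bases away, differed by -0.03 and 0.04 at 0 h. Pif1 was called at 1 of the 9 comparisons. Larger values stood elsewhere: Pif1 was at 0.74 at 12 h, Prex1 at 0.59 without s4U, and Bphl at -0.64 at 12 h and -1.20 without s4U.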

How the data were processed

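Male mESC libraries from SLAM-seq were analysed. Submitters' processing notes name FastQC 0.11.8 and GRCm38.p6. The authors mapped reads with SLAM-DUNK (up to 100 positions per read), masked variants seen in unlabelled libraries, and counted on 3′ UTR windows collapsed by gene. They deposited, per gene and library, counts of reads, multimapping reads, reads with T-to-C conversions, covered T positions and conversions, all unnormalized. A fraction, the conversions over covered T positions, was also deposited and has no background removed. Hours of chase were taken from the study's description of its experiment.

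The 3 genes, the gene lists and the tests were chosen with earlier results of these data known. The text names the 3 genes, genes of 3 lists that passed at 12 h or without s4U (at most 6 per list), the paralogs, the 3 most alike genes, nearest neighbours and rank neighbours at 0 h. Fadd, Spata2 and Tnip1 fall outside this rule and were named after their values were seen. Read counts were fitted with edgeR 4.0.16 (R 4.3.3; TMM, filterByExpr, quasi-likelihood test, adjusted p under 0.01), with a mean for each of 18 conditions and 1 contrast per time, and a linear contrast on hours of treatment over 1 to 12 h of chase. DESeq2 1.42.0 was an alternative. Background-subtracted rates were fitted with an exponential fixed at 1 at 0 h, and transcripts were kept with T coverage above 100, a residual standard error up to 0.3 and a half-life between 0.67 and 18 h. Series of equal replicate number were compared with limma 3.58.1 on log2 half-lives (adjusted p under 0.05) and two-sided exact permutation tests. Transcripts are from GENCODE M21 and promoters from RefSeq, both GRCm38; all 3 genes matched by symbol. Scripts were tested on simulated data. Floors (3 counts) cover counting error only, while the SE and SD values include the spread between libraries. No file column of a sample outside this series was used. The labels give both treatments replicate numbers 1 to 4. Deviations of same-numbered libraries had a mean correlation of 0.014 over 35 pairs, with 1 above 0.1. Such noisy single-gene deviations cannot exclude a pairing by number. At 0 h the share of multimapping reads was 27.96, 27.19, 27.04 and 26.43% in DMSO replicates 1 to 4. In STM2457 it was 27.97, 26.93, 27.24 and 26.52%. The main tests took the libraries as unpaired, with a replicate block as an alternative. Of 105 pairs of replicate libraries, 0 held identical counts.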

Additional observations from a re-analysis of the deposited data

Results flagged for a closer look

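In 7 of 68 groups of 4 values, 1 value stood far from the other 3, and chance alone flags about 1 in 20 such groups. In read counts these were Trp53rkb in DMSO at 2.3 h (13.8 CPM in replicate 2, the others 18.8 to 19.8), Plekho2 in DMSO at 3.5 h (12.7 CPM in replicate 3, the others 4.98 to 5.67) and Plekho2 in STM2457 at 8 h (6.54 CPM in replicate 4, the others 9.82 to 10.47). In conversions, Ripk1 had a rate of 0.390% in unlabelled DMSO replicate 3 and 0 in the other replicates. In half-lives, Plekho2 had 10.4957 h in DMSO series 1 and 17.3 h in STM2457 series 2, and Ripk1 had 5.99 h in STM2457 series 1.

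Trp53rkb carried T-to-C conversions in cells that had received no s4U, and more of them under STM2457. The unlabelled STM2457 libraries had 11, 18, 5 and 17 conversions, or 0.249, 0.392, 0.143 and 0.402% of covered T positions, with a mean of 0.296% ± 0.124 (SD, n = 4). The unlabelled DMSO libraries had 0, 0, 1 and 1 conversions, with a mean of 0.0345% ± 0.0420. A two-sided exact permutation test, chosen after seeing the data, gave p = 0.0286, the smallest it can give, and with libraries of equal number paired it gave 0.125, again the smallest. Every STM2457 library was above every DMSO library, which held for 98 of 9707 genes with over 100 covered T positions (1.01%). By the difference of the mean rates, Trp53rkb ranked 162 among the 9707. Over all genes together, the unlabelled libraries had 0.0771 to 0.087% in DMSO and 0.0733 to 0.093% in STM2457. The share of unlabelled Trp53rkb reads with a conversion was 5.34% ± 2.36 in STM2457 and 0.615% ± 0.737 in DMSO (SD, n = 4). Trp53rka had 2 conversions in unlabelled STM2457 and 4 in unlabelled DMSO libraries, and Plekho2 had 0 on 5114 and 2868 covered T positions, which allows up to 0.0587 and 0.105%. The part of these conversions in the rates of Trp53rkb was not tested beyond subtracting them: without that subtraction the rate at 0 h was 1.32% ± 0.440 in DMSO and 1.59% ± 0.447 in STM2457 (exact permutation p = 0.429, n = 4). The half-life under STM2457 was 3.31 h with the subtraction and 4.64 h without it, as geometric means of 4 series, and the log2 difference from DMSO was 0.11 and 0.52. At 12 h of chase the STM2457 rate was 0.2165%, below the subtracted mean, which gives -6.18% of the rate at 0 h.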

How the results depend on the processing

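The choices of scaling (RLE, total reads), low-count filter, DESeq2, replicate block and multimapping reads changed no call of Trp53rkb, Ripk1 or Plekho2. Medians of all genes moved by less than 0.1. Fitting only the libraries of a time ended the calls of Trp53rkb at 1 h (1.33, adjusted p = 0.125) and Ripk1 without s4U (1.22). The reads of Trp53rka and Trp53rkb were also summed, a choice made after seeing the data. The difference of the sum was 0.64 at 0 h. It no longer passed at 1 h (0.49), 2.3 h (0.47), 3.5 h (0.32), 5.3 h (0.50), 8 h (0.0798) and 12 h (0.0456), and it still passed at 1.5 h and without s4U. Most of the summed reads in DMSO are of Trp53rka, at 79.0 CPM beside 16.5 CPM for Trp53rkb at 12 h. Leaving out 1 library each gave ranges that included lost calls of Ripk1 at 3.5 h (1.20 to 1.48), of Ripk1 without s4U (1.02 to 1.44) and of Plekho2 at 1.5 h (1.30 to 1.54). The log2 half-life difference of Trp53rkb reversed to -1.81 with a straight line on the log of the rates. That line leaves out rates at or below 0, and the part this played in the reversal was not tested. The half-life difference of Trp53rkb was -0.68 per library size, 0.52 without background subtraction, 0.41 without 3.5 h and -0.06 to 0.30 with 1 series left out, with no call. The replicate block left its half-life difference at 0.11 (exact permutation p = 0.75) and moved the genes called higher at 3.5 h to 80.

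Over all genes, fits of 1 time alone called 0 genes higher at 1 h (edgeR; 757 at an unadjusted p under 0.05; 172 called by DESeq2 in all libraries), 325 at 2.3 h, 217 at 3.5 h, 101 at 5.3 h, 351 at 8 h and 85 without s4U. Leaving out 1 library each gave 81 to 130 genes higher at 0 h, 89 to 145 at 1 h, 277 to 589 at 1.5 h, 92 to 122 at 2.3 h, 76 to 104 at 3.5 h, 147 to 511 at 5.3 h and 106 to 179 without s4U, and 153 to 338 genes with a slope. The rate at 0 h called 0 genes by limma with the block and 0 to 1 with 1 library left out. Single genes had 4 to 515 reads per library, which limits the errors given.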
